A study of Mus musculus with 9 samples.

Results

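Cd38, Bst1, Sarm1, Parp1, Parp2, Parp3 and Nnmt are 7 genes whose products use up NAD or, in the case of Nnmt, the nicotinamide from which NAD is remade. They were taken by gene name from a deposited RNA-seq table of 35112 mouse genes, in which each name had 1 row, and all 7 had enough counts to be tested. The libraries were made from polyadenylated brain RNA of wild type C57BL/6 mice, 3 mice in each of 3 groups. The groups were mice with intracerebral haemorrhage that also received P7C3-A20 (ICH+P7C3-A20), mice with intracerebral haemorrhage alone (ICH) and mice given the control treatment (sham), all sampled at 72 hours. P7C3-A20 is a neuroprotective aminopropyl carbazole that has been linked to NAD salvage, and intracerebral haemorrhage is bleeding into the brain. The labels used here give no brain region, dose, vehicle or age.

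NAD is both a redox carrier and a substrate that several enzyme families split into nicotinamide and ADP-ribose. CD38 and its neighbour and paralog BST1 (also called CD157) do this at the surface of immune and other cells and also form cyclic ADP-ribose, SARM1 does it inside injured axons, and PARP enzymes do it to attach ADP-ribose to proteins at DNA breaks and elsewhere. Nicotinamide set free by all of them is either returned to NAD by NAMPT, the rate-limiting enzyme of salvage, or methylated by NNMT and lost to the pathway.

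Libraries held 51537047 to 63324728 estimated counts, at which 3 counts equal 0.0455 to 0.0625 CPM, a limit that covers counting error only. CPM are depth-scaled counts, on library totals adjusted by the trimmed mean of M values (TMM), and all differences are log2 changes with their error from edgeR's quasi-likelihood fit to all 9 libraries. A gene was called at a Benjamini-Hochberg adjusted p under 0.05 over the 21900 genes tested. None of 8 neuron, 8 astrocyte or 8 oligodendrocyte markers was at 0 in any library, as the brain label implies. ICH+P7C3-A20 1 stood apart within its group on 2 marker lists: its summed neuron markers were the highest of the 9 libraries (6110 CPM, against 3830 and 4260 CPM in ICH+P7C3-A20 2 and 3) and its oligodendrocyte markers the lowest (5700 CPM). Choroid plexus markers were more uneven within every group, with 8 markers summing to 703, 2140 and 88.3 CPM in ICH+P7C3-A20 1, 2 and 3, 1190, 36.4 and 3240 CPM in ICH 1, 2 and 3 and 182, 656 and 29.8 CPM in sham 1, 2 and 3, and their part in the results was not tested. Mitochondrially encoded genes took 17.1%, 10.4% and 18.5% of counts in ICH+P7C3-A20 1, 2 and 3, 14.3%, 15.5% and 9.74% in ICH 1, 2 and 3 and 16.6%, 16.2% and 9.14% in sham 1, 2 and 3.

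Per transcript length, Parp1 was the most abundant of the 7 genes in every group and Nnmt the least. Levels are given here as deposited FPKM (fragment counts corrected for gene length and depth, mean ± SD, n = 3). Parp1, the main DNA-break sensor of the family, had 8.68 ± 1.36 FPKM in ICH+P7C3-A20 brains, 10.6 ± 1.42 in ICH brains and 8.89 ± 2.25 in sham brains. Parp3 took the second place in ICH brains with 7.59 ± 0.67 FPKM, the fourth in ICH+P7C3-A20 brains with 3.24 ± 1.45 FPKM and the fifth in sham brains with 1.2 ± 0.409 FPKM. Parp2 followed Parp1 in ICH+P7C3-A20 brains (4.6 ± 0.445 FPKM) and in sham brains (3.64 ± 0.577 FPKM), and stood at 5.02 ± 0.561 FPKM in ICH brains. Sarm1 was lowest in ICH brains on this scale, with 3.37 ± 0.443, 2.47 ± 0.313 and 2.96 ± 0.292 FPKM in ICH+P7C3-A20, ICH and sham brains. Cd38 had 2.08 ± 0.711 FPKM in ICH+P7C3-A20, 3.58 ± 0.159 in ICH and 1.64 ± 0.573 in sham brains, and Bst1 had 0.396 ± 0.209, 1.23 ± 0.139 and 0.0615 ± 0.0331 FPKM in the same groups. Nnmt stayed at 0.144 ± 0.0957, 0.129 ± 0.129 and 0.0447 ± 0.0516 FPKM.

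The order of FPKM levels in ICH brains was Parp1, Parp3, Parp2, Cd38, Sarm1, Bst1 and Nnmt, and no 2 neighbours in it overlapped over the 3 libraries. In ICH+P7C3-A20 brains it was Parp1, Parp2, Sarm1, Parp3, Cd38, Bst1 and Nnmt, where Sarm1 and Parp3, Parp3 and Cd38, and Bst1 and Nnmt overlapped. In sham brains it was Parp1, Parp2, Sarm1, Cd38, Parp3, Bst1 and Nnmt, with overlaps between Parp2 and Sarm1, Cd38 and Parp3, and Bst1 and Nnmt. The place of Parp3 therefore differed most between the groups, as the plot of FPKM by gene shows.

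**Figure D1:**
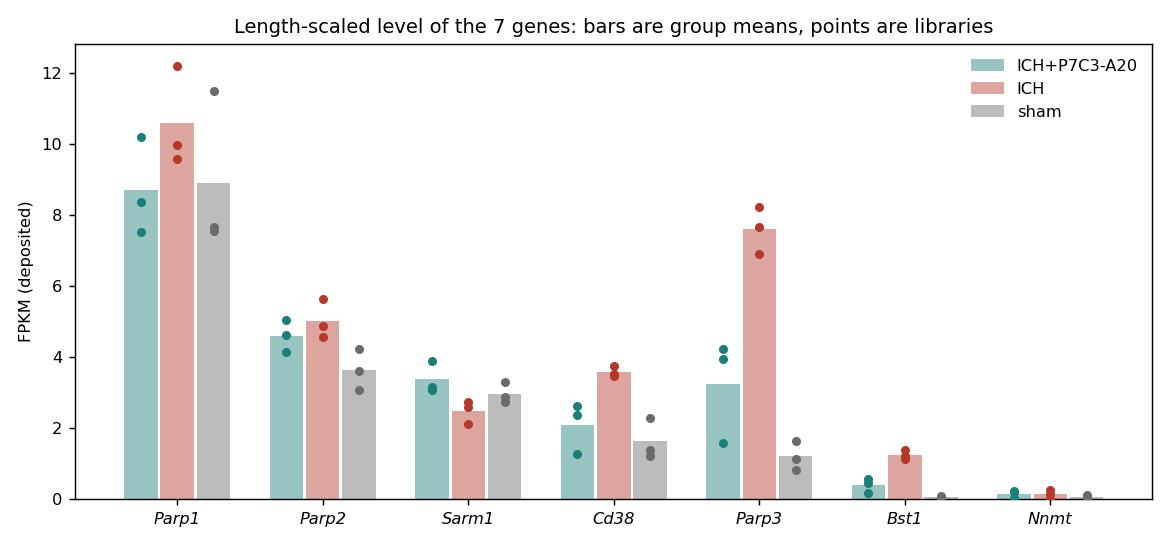
Deposited FPKM (y axis) of the 7 genes (x axis), with bars for the mean of each group and points for its 3 libraries, in the order ICH+P7C3-A20, ICH, sham. Parp1 is the tallest in each group, and the ICH bar of Parp3 (7.59 FPKM) stands far above its ICH+P7C3-A20 bar (3.24 FPKM) and its sham bar (1.2 FPKM).

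In ICH brains Bst1, Parp3, Cd38 and Parp2 were higher than in sham brains, by 18.9, 6.18, 2.09 and 1.33 times. Sarm1, Parp1 and Nnmt did not pass the test. Of the 7 genes 4 were thus called higher and 0 lower by edgeR (4 at an unadjusted p under 0.05, all higher), and DESeq2 too called 4. Over all genes tested, 26% were called, 15.6% higher and 10.4% lower. The same 4 genes had groups that did not overlap, as had 42.1% of all genes tested (23.3% higher and 18.8% lower in ICH). The median log2 change was 1.06 over the 7 genes and 0 over all genes tested, and no test of the 7 as a set was made.

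In ICH+P7C3-A20 brains Parp3 was lower than in ICH brains by 2.29 times and was the 1 gene of the 7 that edgeR called, where 8.74% of all genes tested were called, 2.69% higher and 6.05% lower. With 7 genes, 1 call is near that background and is not read as a result about the 7 genes. Bst1, Cd38 and Sarm1 reached an unadjusted p under 0.05 but not the adjusted threshold. Groups did not overlap for 5 genes, of which Cd38, Bst1, Parp1 and Parp3 were lower and Sarm1 higher in ICH+P7C3-A20 brains, against 33.6% of all genes tested (15.1% higher and 18.5% lower). The median log2 change was -0.23 over the 7 genes and -0.01 over all genes tested.

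Against sham brains, ICH+P7C3-A20 brains had more Bst1 and Parp3, by 6.35 and 2.7 times, and these were the 2 genes called. Over all genes tested 5.32% were called, 4.58% higher and 0.744% lower. Bst1, Parp2 and Parp3 had groups that did not overlap, all higher in ICH+P7C3-A20 brains, as had 20.4% of all genes tested (12.6% higher and 7.84% lower). The 3 comparisons share libraries in pairs, so their values are set side by side and not correlated.

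**Figure D2:**
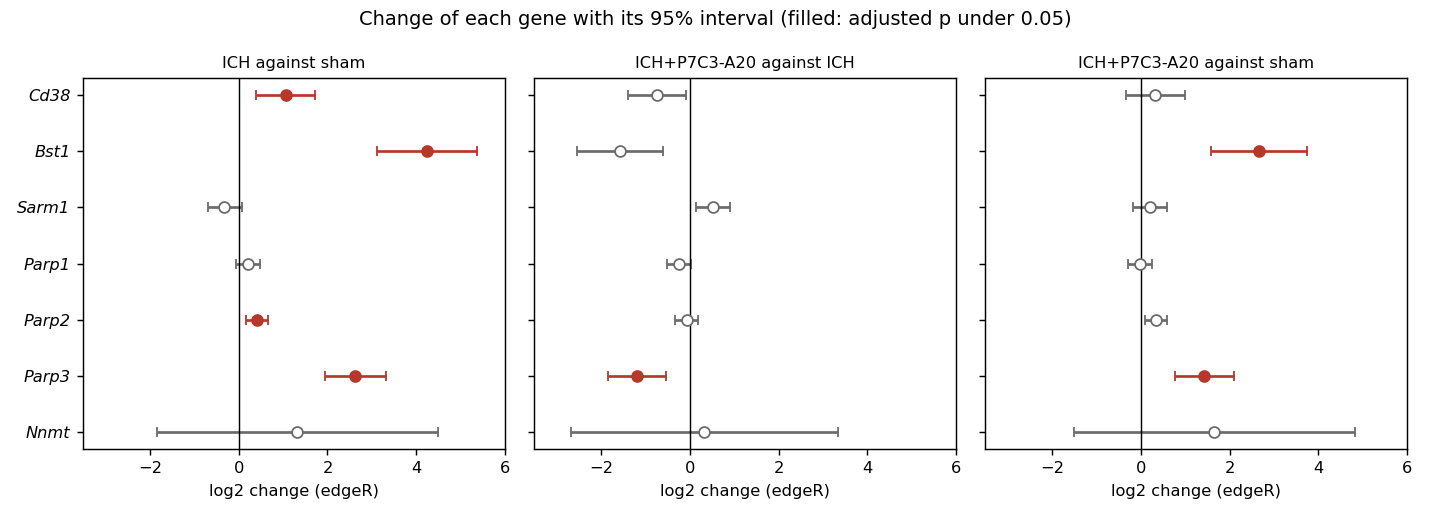
Log2 change of each of the 7 genes (x axis, edgeR) in the 3 comparisons, with bars for the 95% interval and filled points for genes with an adjusted p under 0.05. Bst1, Parp3, Cd38 and Parp2 are filled in ICH against sham, Parp3 alone in ICH+P7C3-A20 against ICH, and Bst1 and Parp3 in ICH+P7C3-A20 against sham.

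Bst1 encodes a GPI-anchored surface enzyme first known from bone marrow stromal cells. Its row lies at chr5:43818885-43843986 on the plus strand, and Cd38 begins 24566 bases after its end, at chr5:43868553-43912375 on the same strand (table coordinates, which equal those of GENCODE M21 on GRCm38 for both genes). Bst1 had 0.729, 1.64 and 2.45 CPM in ICH+P7C3-A20 1, 2 and 3, 4.32, 5.74 and 4.33 CPM in ICH 1, 2 and 3 and 0.271, 0.129 and 0.349 CPM in sham 1, 2 and 3. All 9 values sort by group without overlap, with ICH highest and sham lowest. The sham values rest on 15, 7 and 23 estimated counts. In ICH against sham brains Bst1 averaged 4.8 ± 0.814 and 0.249 ± 0.112 CPM (SD, n = 3 each), a log2 change of 4.24 ± 0.50 (edgeR, adjusted p = 0.000172), and 1.8% of all genes tested had a larger absolute change. Against sham brains, ICH+P7C3-A20 brains averaged 1.61 ± 0.859 CPM, a log2 change of 2.67 ± 0.49 (edgeR, adjusted p = 0.0102). That call was lost when the 2 compared groups were fitted alone (adjusted p = 0.0677) and in the 3 fits to FPKM (limma, adjusted p between 0.0612 and 0.182).

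Bst1 was lower in each ICH+P7C3-A20 library than in any ICH library, but the log2 change of -1.57 ± 0.44 (95% interval -2.54 to -0.60) had an edgeR adjusted p of 0.0511. It fell on the other side of the threshold without ICH+P7C3-A20 3 (adjusted p = 0.0387) and in 8 alternative fits, among them DESeq2 (adjusted p = 0.00492). Without ICH+P7C3-A20 1 the log2 change was -1.23 (adjusted p = 0.13) against ICH and 3.01 (adjusted p = 0.0016) against sham. Bst1 shares 98 exonic bases, 2.95% of its exons, with Fbxl5 on the opposite strand. The strand setting of the counting is not given, and the Fbxl5 row had a log2 change of -0.26 ± 0.13 in ICH against sham (edgeR, adjusted p = 0.199). The part of this overlap in the Bst1 values was not tested.

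Cd38 encodes the main NAD glycohydrolase of many tissues, found on immune cells and, in brain, also in glia. It had 6.5, 9.75 and 13 CPM in ICH+P7C3-A20 1, 2 and 3, 17.1, 17.1 and 14.5 CPM in ICH 1, 2 and 3 and 6.89, 11.2 and 5.25 CPM in sham 1, 2 and 3. All ICH libraries lay above all others, and the ICH+P7C3-A20 and sham libraries overlapped. ICH brains averaged 16.3 ± 1.53 CPM, against 7.78 ± 3.07 CPM in sham brains, a log2 change of 1.06 ± 0.30 (edgeR, adjusted p = 0.0238). The call ended without ICH 1 (adjusted p = 0.0704), ICH 2 (0.0704), sham 1 (0.0845) or sham 3 (0.0601). Against ICH brains, ICH+P7C3-A20 brains averaged 9.76 ± 3.27 CPM, with a log2 change of -0.74 ± 0.30 (95% interval -1.39 to -0.08, edgeR adjusted p = 0.157), and against sham brains the log2 change was 0.33 ± 0.30 (95% interval -0.33 to 0.99, adjusted p = 0.645).

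The 300 bases from 250 before to 50 after the RefSeq start of Cd38 (RefSeq, GRCm38.p6, chr5:43868559-43868858, plus strand) are shown because Cd38 is the glycohydrolase called higher in ICH brains for which this table held a promoter. It holds 5 of the 7 genes, without Bst1 and Nnmt. Capitals would mark a match to any of 6 motifs searched on both strands, and there is none in the Cd38 window. This window lies wholly inside the deposited Cd38 row, which begins at chr5:43868553 on the plus strand. No base before that start was therefore searched for Cd38.
Cd38: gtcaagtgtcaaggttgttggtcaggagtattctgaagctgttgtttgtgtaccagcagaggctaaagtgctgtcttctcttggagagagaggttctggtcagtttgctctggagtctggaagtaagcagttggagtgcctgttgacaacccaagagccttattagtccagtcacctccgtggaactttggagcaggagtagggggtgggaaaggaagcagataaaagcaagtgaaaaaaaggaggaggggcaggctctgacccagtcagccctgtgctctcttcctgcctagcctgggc

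The motifs were GAAANNGAA (core of the interferon-stimulated response element), in 8.56% of 32851 promoters of the same length, TTCNNNGAA (gamma-activated site) in 8.3%, TGANTCA (AP-1 site) in 7.81%, the NF-kappaB site in 8.46%, GAGGAAG (PU.1 core) in 13.6% and GGGCGG (GC box) in 35.7%. An absent match says only that these letters are not in this window.

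Over the 9 libraries the genes whose centred log2 CPM lay closest to that of Bst1 were Naip2, a sensor of bacterial proteins in macrophages (mean absolute difference 0.14), Adgre1, which encodes the macrophage antigen F4/80 (0.15), and the transcription factor gene Cebpd (0.20), against a median of 1.51 over the 12207 genes compared. For Cd38 they were the coiled-coil gene Ccdc163 (0.09), Sparc, a matrix protein gene of vessels and glia (0.11), and Adcy7, an adenylyl cyclase gene of blood cells (0.11), against a median of 0.55 over 12206 genes. Bst1 and Cd38 themselves differed by 1.03 on this measure, and Bst1 and Parp3 by 0.46.

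Parp3 encodes a nuclear enzyme that attaches single ADP-ribose units at DNA double-strand breaks. It had 7.64, 16.6 and 18.6 CPM in ICH+P7C3-A20 1, 2 and 3, 30, 35.4 and 32.9 CPM in ICH 1, 2 and 3 and 3.9, 5.3 and 6.69 CPM in sham 1, 2 and 3. The 3 groups did not overlap, and ICH+P7C3-A20 1 lay just above the highest sham library. ICH brains averaged 32.7 ± 2.7 CPM, against 5.29 ± 1.39 CPM in sham brains, a log2 change of 2.63 ± 0.31 (edgeR, adjusted p = 0.000162), and 4.58% of all genes tested had a larger absolute change. ICH+P7C3-A20 brains averaged 14.3 ± 5.85 CPM, a log2 change of -1.19 ± 0.29 against ICH brains (edgeR, adjusted p = 0.0331) and of 1.43 ± 0.30 against sham brains (adjusted p = 0.0207).

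Both calls of Parp3 in ICH+P7C3-A20 brains depended on single libraries. Against ICH it was not called without ICH 1 (adjusted p = 0.0827), ICH 2 (0.109) or ICH 3 (0.0969), and against sham not without ICH+P7C3-A20 2 (0.0691), ICH+P7C3-A20 3 (0.0919), sham 1 (0.087) or sham 2 (0.0636). Without ICH+P7C3-A20 1 Parp3 was called in both, with a log2 change of -0.89 against ICH (adjusted p = 0.0455) and 1.73 against sham (adjusted p = 0.000638). In ICH against sham Parp3 and Bst1 were called in every alternative fit and with each library left out. Parp3 (chr9:106470322-106476949, minus strand) shares 20 exonic bases, 0.541% of its exons, with Rrp9 on the opposite strand, whose log2 change in ICH against sham was -0.01 ± 0.23.

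Parp2 encodes a second enzyme that makes poly(ADP-ribose) chains at DNA breaks. It had 19.8, 19.5 and 21.5 CPM in ICH+P7C3-A20 1, 2 and 3, 20.7, 20.6 and 22.2 CPM in ICH 1, 2 and 3 and 14.2, 16.5 and 16.9 CPM in sham 1, 2 and 3. Sham libraries lay below all others, and the ICH+P7C3-A20 and ICH libraries overlapped. ICH brains averaged 21.2 ± 0.855 CPM, against 15.9 ± 1.47 CPM in sham brains, a log2 change of 0.41 ± 0.11 (edgeR, adjusted p = 0.0214). The call ended without ICH 1 (adjusted p = 0.0581), ICH 2 (0.0537), ICH 3 (0.085) or sham 1 (0.0843). The log2 change in ICH+P7C3-A20 brains was -0.07 ± 0.11 against ICH (95% interval -0.32 to 0.19, adjusted p = 0.795) and 0.35 ± 0.11 against sham (95% interval 0.10 to 0.60, adjusted p = 0.121).

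Parp1 had 57.8, 57.2 and 51 CPM in ICH+P7C3-A20 1, 2 and 3, 61.9, 63.2 and 69.7 CPM in ICH 1, 2 and 3 and 51.4, 50.2 and 66.9 CPM in sham 1, 2 and 3. All ICH+P7C3-A20 libraries lay below all ICH libraries, sham 3 lay among the ICH libraries and sham 1 and 2 lay beside the lowest ICH+P7C3-A20 library. The log2 change was 0.21 ± 0.12 in ICH against sham (95% interval -0.06 to 0.48, edgeR adjusted p = 0.254), -0.23 ± 0.12 in ICH+P7C3-A20 against ICH (95% interval -0.50 to 0.04, adjusted p = 0.286) and -0.02 ± 0.12 in ICH+P7C3-A20 against sham (95% interval -0.29 to 0.25, adjusted p = 0.961). Without sham 3, one of the libraries with a low mitochondrial share, Parp1 was called higher in ICH against sham (log2 change 0.35, adjusted p = 0.0273). Parp1 transcripts share 428 bases at 90.7% identity with Gm49061, so that reads from this stretch could align at either locus. No deposited row is named Gm49061, and the part of this stretch in the Parp1 values was not tested.

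The promoter windows of the 3 PARP genes are printed because Parp3 and Parp2 were called higher in ICH brains and Parp1 was not. They are RefSeq sequences (GRCm38.p6) for Parp3 at chr9:106476900-106477199 on the minus strand, Parp2 at chr14:50807666-50807965 on the plus strand and Parp1 at chr1:180568641-180568940 on the plus strand. Capitals mark matches to the 6 motifs given with Cd38, on either strand. Parp3 has 0 matches, Parp2 has 1 PU.1 core and 1 GC box that overlap in 1 base, and Parp1 has 4 GC boxes. The Sarm1 window, not printed, has 1 core of the interferon-stimulated response element and 1 GC box. A match is a description of these letters and not a site.
Parp3: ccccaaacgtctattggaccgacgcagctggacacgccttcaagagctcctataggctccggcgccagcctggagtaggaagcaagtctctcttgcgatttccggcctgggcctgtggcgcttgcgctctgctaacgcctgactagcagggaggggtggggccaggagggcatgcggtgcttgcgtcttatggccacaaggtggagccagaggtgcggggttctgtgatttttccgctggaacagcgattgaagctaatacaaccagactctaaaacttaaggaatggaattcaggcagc
Parp2: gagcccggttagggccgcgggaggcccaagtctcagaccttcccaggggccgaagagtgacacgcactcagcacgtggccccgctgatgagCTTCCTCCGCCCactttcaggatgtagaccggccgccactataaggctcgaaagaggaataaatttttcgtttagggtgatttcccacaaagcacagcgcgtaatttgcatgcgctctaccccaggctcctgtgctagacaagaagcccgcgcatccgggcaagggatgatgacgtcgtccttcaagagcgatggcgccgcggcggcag
Parp1: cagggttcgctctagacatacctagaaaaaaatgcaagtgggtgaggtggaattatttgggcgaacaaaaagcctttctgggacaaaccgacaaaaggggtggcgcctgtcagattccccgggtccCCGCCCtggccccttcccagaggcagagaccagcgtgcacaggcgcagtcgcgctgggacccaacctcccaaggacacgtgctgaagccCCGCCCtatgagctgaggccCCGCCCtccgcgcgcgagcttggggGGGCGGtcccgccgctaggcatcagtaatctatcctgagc

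Closest to Parp3 over the 9 libraries were Spc24, a kinetochore gene (mean absolute difference 0.11), Irf5, an interferon regulatory factor gene of macrophages (0.13), and the cyclin gene Ccna2 (0.13), against a median of 1.07. Closest to Parp2 were Rgl2, a Ral exchange factor gene, the cyclophilin gene Ppib and the prohibitin gene Phb2, each at 0.05, against a median of 0.26, so that many genes lay near its nearly flat pattern.

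**Figure D3:**
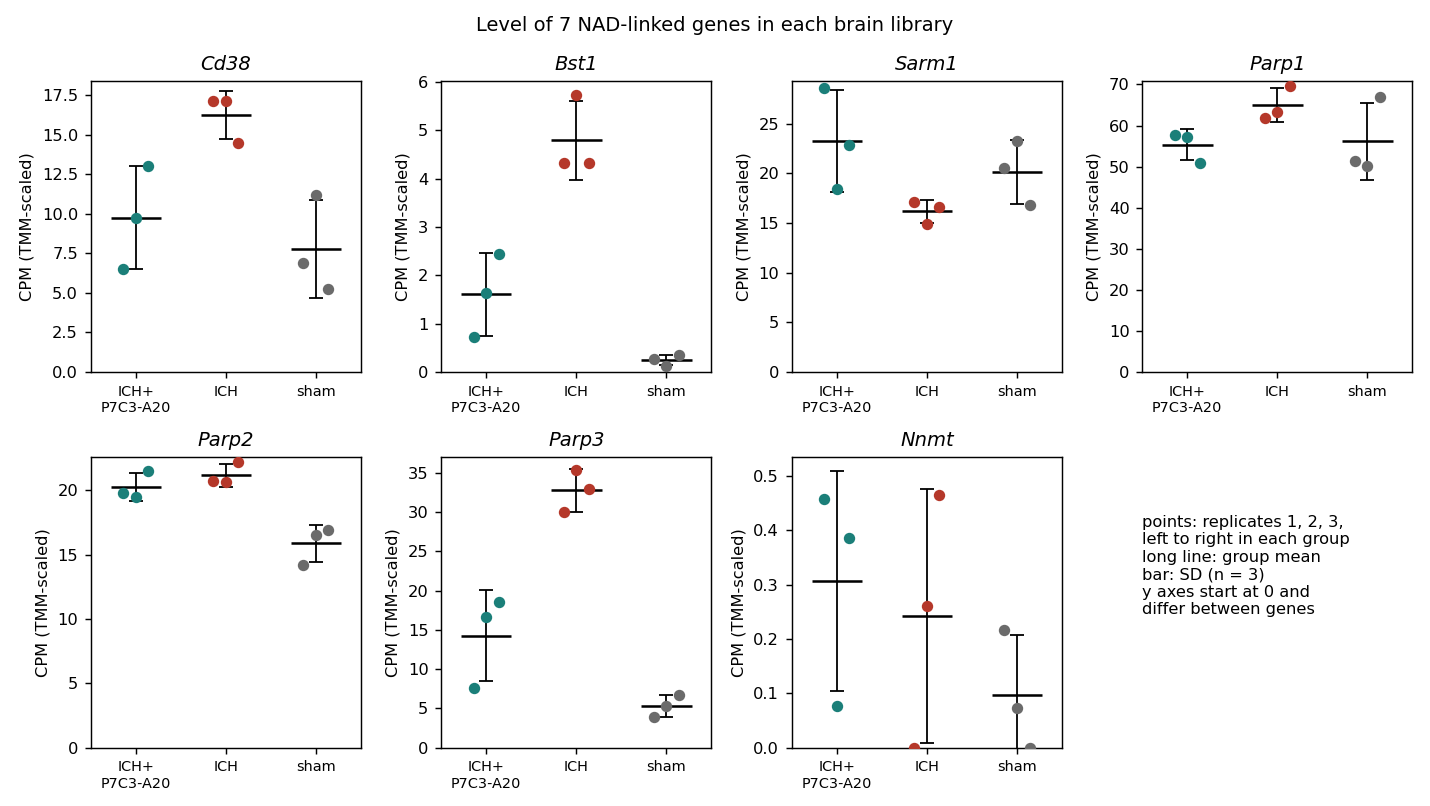
TMM-scaled CPM (y axis, from 0, with its own range in each panel) of the 7 genes in every library, by group (x axis: ICH+P7C3-A20, ICH, sham), with the group mean and its SD (n = 3). Bst1 and Parp3 separate all 3 groups, the ICH libraries of Cd38 lie above all others, and Nnmt stays below 0.5 CPM everywhere.

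The wider PARP family added 13 further genes, all tested. In ICH against sham brains 6 of them were higher and 2 lower (edgeR), beside 15.6% higher and 10.4% lower over all genes tested, with a median log2 change of 0.42. The highest were Zc3hav1, an antiviral RNA-binding member (1.76 ± 0.24, adjusted p = 0.000368), Parp10, which attaches single ADP-ribose units (1.64 ± 0.24, adjusted p = 0.000635), and Parp9, an interferon-inducible partner of DTX3L (1.63 ± 0.22, adjusted p = 0.000378). The 2 lower genes, Parp6 at -0.48 ± 0.11 (adjusted p = 0.00892) and the tankyrase gene Tnks at -0.36 ± 0.09 (adjusted p = 0.0152), were picked for naming after their values were seen, and 1 gene was called lower without ICH 2, ICH 3 or sham 1. Parp3 had the largest change of the 16 family genes in the plot of the family.

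With P7C3-A20, 5 of the 13 genes were lower in ICH+P7C3-A20 than in ICH brains and 1, Parp6 (0.43 ± 0.11, adjusted p = 0.0353), higher by edgeR, beside 6.05% lower and 2.69% higher over all genes tested, with a median log2 change of -0.46. Parp14, a macrodomain member, had 9.1, 11.6 and 12.9 CPM in ICH+P7C3-A20 1, 2 and 3, against 21.6, 48.9 and 34.7 CPM in ICH 1, 2 and 3. Its log2 change was -1.65 ± 0.26 (adjusted p = 0.00734), and those of Parp9 and Parp10 were -1.55 ± 0.22 (adjusted p = 0.0064) and -1.45 ± 0.24 (adjusted p = 0.00766). Parp6 lost its call when any ICH library, ICH+P7C3-A20 1 or ICH+P7C3-A20 3 was left out, and without ICH+P7C3-A20 1 the counts were 5 lower and 0 higher. Against sham, ICH+P7C3-A20 brains had 0 of the 13 called by edgeR (1 at an unadjusted p under 0.05, 1 lower and 0 higher by DESeq2), with a median of -0.05.

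**Figure D4:**
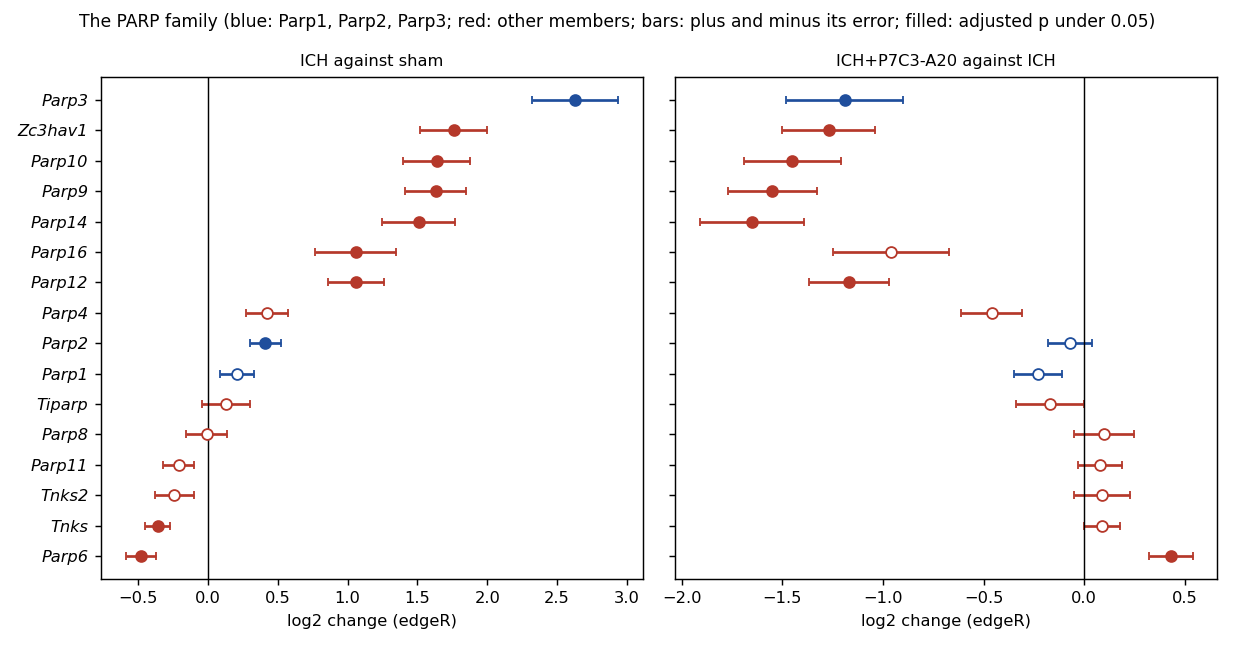
Log2 change (x axis, edgeR, bars plus and minus its error) of 16 PARP family genes, with ICH against sham on the left and ICH+P7C3-A20 against ICH on the right (Parp1, Parp2 and Parp3 blue, the other 13 red, filled points with an adjusted p under 0.05). Parp3 tops the left panel at 2.63, and Parp14 is lowest in the right panel at -1.65.

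Another 8 genes encode enzymes that take ADP-ribose off proteins or break it down. Of these 1 was higher in ICH than in sham brains, Nudt9, an ADP-ribose pyrophosphatase gene (0.36 ± 0.10, adjusted p = 0.0209), and 1 lower, the macrodomain hydrolase gene Macrod2 (-0.84 ± 0.13, adjusted p = 0.000883), by edgeR. These 2 calls in 8 genes are near the 26% of all genes called. The count of higher genes was 0 without ICH 1, ICH 2 or sham 1 and 2 without sham 2. Macrod2 was the 1 gene of this list called in ICH+P7C3-A20 against ICH (0.54 ± 0.13, adjusted p = 0.0299), beside 8.74% over all genes tested. That call ended when any ICH library or ICH+P7C3-A20 1 was left out. Against sham 0 were called by edgeR and by DESeq2 (1 at an unadjusted p under 0.05). The list's medians were 0.05 in ICH against sham, -0.08 in ICH+P7C3-A20 against ICH and -0.01 in ICH+P7C3-A20 against sham. Of 10 partners of PARP1 in single-strand break repair, 3 were higher in ICH than in sham brains and 0 lower (edgeR, median 0.05), a share near the 26% of all genes called. They were the scaffold gene Xrcc1 (0.43 ± 0.09, adjusted p = 0.00712), the flap endonuclease gene Fen1 (1.04 ± 0.24, adjusted p = 0.0082) and the remodeller gene Chd1l (0.53 ± 0.15, adjusted p = 0.0241). In ICH+P7C3-A20 brains 0 of these 10 were called by edgeR against ICH (2 at an unadjusted p under 0.05, 1 lower by DESeq2) or against sham (1 at an unadjusted p under 0.05, 0 by DESeq2).

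Sarm1 encodes the TIR-domain NADase that carries out axon degeneration and is held in check by NMNAT2. It had 28.6, 18.4 and 22.8 CPM in ICH+P7C3-A20 1, 2 and 3, 17.1, 14.9 and 16.6 CPM in ICH 1, 2 and 3 and 20.5, 23.2 and 16.8 CPM in sham 1, 2 and 3. All ICH+P7C3-A20 libraries lay above all ICH libraries, while sham 3 lay within the ICH range. Sarm1 averaged 16.2 ± 1.12 CPM in ICH brains and 20.2 ± 3.2 CPM in sham brains, a log2 change of -0.32 ± 0.17 (95% interval -0.70 to 0.07, edgeR adjusted p = 0.219). In ICH+P7C3-A20 brains it averaged 23.3 ± 5.09 CPM, a log2 change of 0.52 ± 0.17 against ICH (95% interval 0.14 to 0.91, edgeR adjusted p = 0.0907) and of 0.20 ± 0.17 against sham (95% interval -0.18 to 0.59, adjusted p = 0.618). Against ICH it passed the threshold by DESeq2 (adjusted p = 0.0414) and without ICH+P7C3-A20 2 (adjusted p = 0.0407), and without ICH+P7C3-A20 1 the log2 change was 0.35 (adjusted p = 0.324).

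Of 12 genes of the axon degeneration pathway around Sarm1, 9 were lower in ICH than in sham brains and 0 higher (edgeR, median -0.60), beside 10.4% lower and 15.6% higher over all genes tested. DESeq2 too called 9 lower and 0 higher, but 5 were lower without ICH 1, 3 without ICH 3, 3 without sham 1 and 4 without sham 2. The smallest p-values belonged to Map3k13, a kinase gene of the axon injury signal (-0.81 ± 0.13, adjusted p = 0.00126), Mycbp2, a ubiquitin ligase gene that limits NMNAT2 (-0.60 ± 0.12, adjusted p = 0.00355), and Mapk9, a JNK gene (-0.61 ± 0.12, adjusted p = 0.00367). Nmnat2, the axonal NAD synthase gene, had 104, 75.2 and 78.3 CPM in ICH+P7C3-A20 1, 2 and 3, 60.5, 72.1 and 58 CPM in ICH 1, 2 and 3 and 97.8, 110 and 76.2 CPM in sham 1, 2 and 3. It was lower in ICH than in sham brains (-0.57 ± 0.16, edgeR adjusted p = 0.0254), with no overlap between these groups. Of the 12, 2 were higher and 0 lower in ICH+P7C3-A20 than in ICH brains (edgeR, median 0.45, beside 2.69% higher and 6.05% lower over all genes tested), the JNK genes Mapk9 (0.48 ± 0.12, adjusted p = 0.0336) and Mapk10 (0.64 ± 0.17, adjusted p = 0.0409). DESeq2 called 6 higher, and edgeR called 4 without ICH+P7C3-A20 2 and 0 when any other library of these groups was left out. Against sham Map3k13 was lower in ICH+P7C3-A20 brains (-0.73 ± 0.13, adjusted p = 0.00987). It was the 1 gene of the list called, beside 5.32% called and 0.744% lower over all genes tested.

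In ICH against sham and in ICH+P7C3-A20 against ICH, neuron markers were called in the same direction as genes of this pathway. Sarm1 itself was called in neither (edgeR, adjusted p = 0.219 and 0.0907). Of 8 markers 7 were lower in ICH than in sham brains (edgeR), beside 10.4% over all genes tested. Against ICH brains, 2 were higher in ICH+P7C3-A20 brains, beside 2.69% over all genes tested. Against sham brains, 0 of the 8 markers were called in ICH+P7C3-A20 brains, beside 5.32% over all genes tested. Their summed level was 3830 to 6110 CPM in ICH+P7C3-A20, 2910 to 3300 CPM in ICH and 4580 to 5210 CPM in sham libraries. The part of neuron content in the values of Sarm1 and its pathway was not tested. In bulk tissue, fewer cells of a type and less RNA per cell cannot be told apart.

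In ICH against sham edgeR called Bst1, Parp3 and Cd38 higher, and also most markers of microglia, of monocytes and macrophages and of endothelial cells. In ICH+P7C3-A20 against ICH it called Parp3 lower, but not Bst1 (adjusted p = 0.0511) or Cd38 (adjusted p = 0.157). In ICH+P7C3-A20 against sham Cd38 was not called (log2 change 0.33 ± 0.30, edgeR adjusted p = 0.645) and its groups overlapped. Over all genes tested 15.6% were higher in ICH than in sham brains and 10.4% lower. In ICH+P7C3-A20 brains 6.05% were lower and 2.69% higher than in ICH brains, and 4.58% were higher than in sham brains. All 8 microglia markers were higher in ICH than in sham brains, 4 were lower in ICH+P7C3-A20 than in ICH brains and all 8 were higher in ICH+P7C3-A20 than in sham brains (edgeR). Their summed level was 476 to 754 CPM in ICH+P7C3-A20, 1040 to 1130 CPM in ICH and 263 to 299 CPM in sham libraries. Of 8 monocyte and macrophage markers 7 were higher and 1 lower (Cd163, named after its values were seen) in ICH than in sham brains. In ICH+P7C3-A20 brains 6 were lower than in ICH brains and 5 higher than in sham brains (edgeR). These 8 markers summed to 61.9 to 123, 307 to 433 and 16.4 to 17.2 CPM in ICH+P7C3-A20, ICH and sham libraries. No marker of these lists was at 0. Neutrophil markers summed to 2.67 to 5.28, 5.23 to 11.3 and 0.144 to 1.53 CPM with 1 to 2, 1 to 3 and 3 to 6 of 8 at 0, and lymphocyte markers to 0.578 to 0.771, 0.946 to 3.04 and 0.182 to 0.794 CPM with 4 to 6, 0 to 3 and 4 to 6 of 8 at 0, in ICH+P7C3-A20, ICH and sham libraries. Of 6 neutrophil markers tested, 3 were higher in ICH than in sham brains (edgeR). In ICH+P7C3-A20 brains 0 of them were called against ICH and 1 was higher than in sham brains. Of 4 lymphocyte markers tested, 1 was higher in ICH than in sham brains, and 0 were called in ICH+P7C3-A20 brains against ICH or sham. Of 8 endothelial markers 7 were higher in ICH than in sham brains, 3 were lower in ICH+P7C3-A20 than in ICH brains and 2 were higher in ICH+P7C3-A20 than in sham brains (edgeR), with sums of 262 to 321 CPM in ICH+P7C3-A20, 374 to 405 CPM in ICH and 184 to 222 CPM in sham libraries and no overlap. Fibroblast markers gave 5, 1 and 1 of 8 in the same comparisons and directions, with sums of 56 to 99, 86.7 to 114 and 21.8 to 56.5 CPM in ICH+P7C3-A20, ICH and sham libraries. Oligodendrocyte markers summed to 5700 to 11900, 13000 to 15700 and 9290 to 11500 CPM in those groups, with 1 of 8 higher in ICH against sham and 1 lower in ICH+P7C3-A20 against ICH. Astrocyte markers summed to 3930 to 4520, 3200 to 3960 and 3180 to 3330 CPM in ICH+P7C3-A20, ICH and sham libraries. Of these 8 markers 5 were higher in ICH than in sham brains. In ICH+P7C3-A20 brains 1 was higher and 2 lower than in ICH brains, and 2 were higher than in sham brains. The part of all these cells in the 3 genes' values was not tested.

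**Figure D5:**
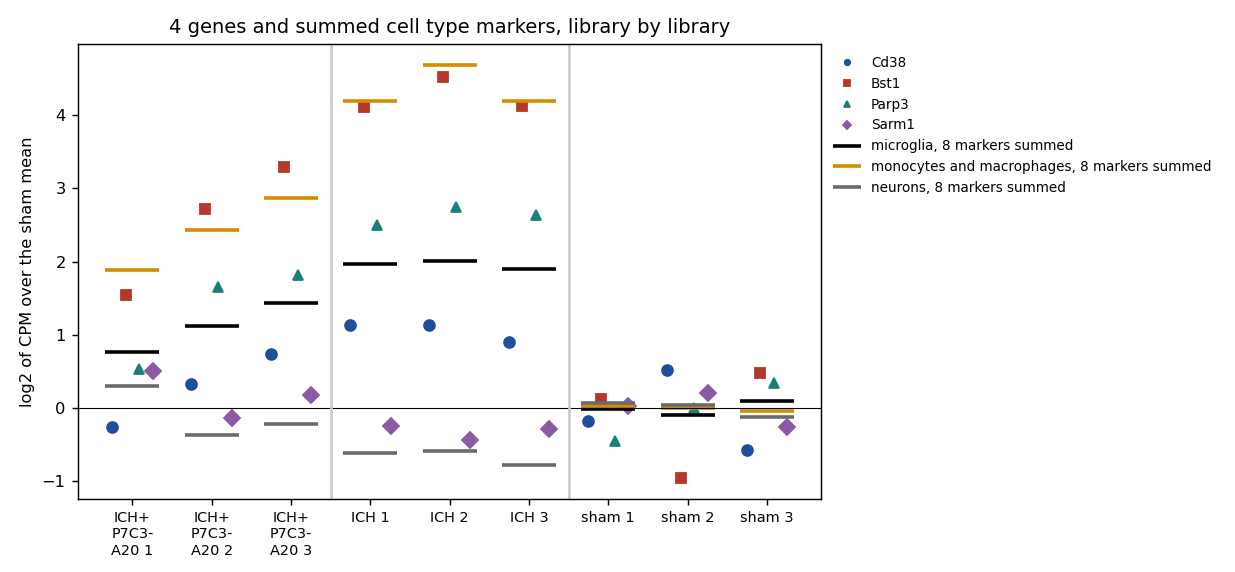
Log2 of CPM over the sham mean (y axis) in each of the 9 libraries (x axis) for Cd38, Bst1, Parp3 and Sarm1 (symbols) and for the summed CPM of 8 microglia, 8 monocyte and macrophage and 8 neuron markers (dashes), with the symbols of 1 library side by side. Of the ICH+P7C3-A20 libraries, ICH+P7C3-A20 1 is lowest and ICH+P7C3-A20 3 highest for Bst1, Parp3, Cd38 and both immune sums.

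Nnmt encodes the methyltransferase that turns nicotinamide into 1-methylnicotinamide at the cost of S-adenosylmethionine. It was barely detected: 0.458, 0.0775 and 0.385 CPM in ICH+P7C3-A20 1, 2 and 3 (22, 5 and 20 estimated counts), 0, 0.26 and 0.465 CPM in ICH 1, 2 and 3 (0, 14 and 28 counts) and 0.217, 0.0736 and 0 CPM in sham 1, 2 and 3 (12, 4 and 0 counts). All groups overlapped, and 1 ICH and 1 sham library were listed at 0. The 95% intervals of its log2 change, from -1.83 to 4.48 in ICH against sham, -2.67 to 3.34 in ICH+P7C3-A20 against ICH and -1.51 to 4.82 in ICH+P7C3-A20 against sham, were wide, and edgeR called no difference. Of 11 tested genes of nicotinamide oxidation and the methionine cycle, Aox1, an aldehyde oxidase gene that acts on methylnicotinamide, was higher in ICH than in sham brains (0.98 ± 0.18, edgeR adjusted p = 0.00291) and Ahcyl1, related to S-adenosylhomocysteine hydrolase, lower (-0.45 ± 0.09, adjusted p = 0.00465), with a median of -0.02 and 26% of all genes called (2 higher without sham 3, 2 lower without sham 2). Of these, 0 were called in ICH+P7C3-A20 against ICH brains by edgeR (3 at an unadjusted p under 0.05, 2 higher and 1 lower by DESeq2). Against sham Aox1 was higher in ICH+P7C3-A20 brains (0.73 ± 0.18, adjusted p = 0.0474), the 1 gene of the list called, beside 5.32% over all genes tested. That call ended when any of the 6 libraries of these groups was left out.

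The next list holds 8 genes that respond to the second messengers made by CD38 and BST1. In ICH brains 3 were higher and 3 lower than in sham brains (edgeR, median -0.06), beside 15.6% higher and 10.4% lower over all genes tested, with 1 lower without ICH 1. Tpcn2, an NAADP-gated lysosomal channel gene, had 5.33, 7.89 and 6.57 CPM in ICH+P7C3-A20 1, 2 and 3, 11.6, 13.8 and 12.7 CPM in ICH 1, 2 and 3 and 2.45, 4.05 and 3.05 CPM in sham 1, 2 and 3, with no overlap between groups. Its log2 change was 2.0 ± 0.23 in ICH against sham (adjusted p = 0.000132), -0.94 ± 0.22 in ICH+P7C3-A20 against ICH (adjusted p = 0.0276) and 1.05 ± 0.22 in ICH+P7C3-A20 against sham (adjusted p = 0.0226). Jpt2, an NAADP-binding protein gene, was higher in ICH than in sham brains (1.91 ± 0.25, adjusted p = 0.000325) and lower in ICH+P7C3-A20 than in ICH brains (-1.24 ± 0.25, adjusted p = 0.0146). Ryr2, a ryanodine receptor gene, went the other way, at -0.81 ± 0.19 (adjusted p = 0.00937) in ICH against sham and 0.80 ± 0.19 (adjusted p = 0.0281) in ICH+P7C3-A20 against ICH. The 3 calls in ICH+P7C3-A20 against ICH were 2 lower and 1 higher, beside 8.74% called over all genes tested. Not all of them held with single libraries left out: 0 were higher when any ICH library or ICH+P7C3-A20 1 was left out. Lower calls numbered 0 without ICH 1 or ICH 2 and 1 without ICH 3, ICH+P7C3-A20 1 or ICH+P7C3-A20 3. Against sham Tpcn2 was the 1 gene called (5.32% over all genes tested), 0 were called without ICH+P7C3-A20 2, ICH+P7C3-A20 3 or sham 1, and 2 without ICH+P7C3-A20 1.

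Among 12 genes that rebuild NAD, 3 were higher and 1 lower in ICH than in sham brains (edgeR, median 0.33), a share near the 26% of all genes called, with 1 higher without ICH 2, sham 1 or sham 2 and 0 lower without ICH 1, ICH 3, sham 1 or sham 2. Besides Nmnat2, the genes with the smallest p-values were Naprt, which feeds nicotinic acid into NAD (1.56 ± 0.34, adjusted p = 0.00648), and the NAD kinase gene Nadk (0.33 ± 0.09, adjusted p = 0.0247). Nampt had 49.4, 56.1 and 47.2 CPM in ICH+P7C3-A20 1, 2 and 3, 63.9, 68.7 and 72.9 CPM in ICH 1, 2 and 3 and 54.1, 55.4 and 53.7 CPM in sham 1, 2 and 3. ICH lay above both other groups, which overlapped. Nampt was the third gene called higher in ICH than in sham brains (0.33 ± 0.10, edgeR adjusted p = 0.0267). Its log2 change was -0.43 ± 0.10 in ICH+P7C3-A20 against ICH brains (edgeR, adjusted p = 0.0229). It was the 1 gene of the list called in that comparison (median -0.31), near the 8.74% of all genes called. That call ended when any ICH library, ICH+P7C3-A20 1 or ICH+P7C3-A20 3 was left out. Against sham 0 of the 12 were called in ICH+P7C3-A20 brains by edgeR and by DESeq2 (1 at an unadjusted p under 0.05).

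Genes that handle nucleotides outside the cell, where CD38 and BST1 act, included 3 of 9 tested that were higher in ICH than in sham brains and 0 lower (edgeR, median 0.31), near the 26% of all genes called. P2rx7, the ATP-gated channel gene, had 13.9, 18 and 19.7 CPM in ICH+P7C3-A20 1, 2 and 3, 32.7, 36.7 and 31.6 CPM in ICH 1, 2 and 3 and 11, 12.2 and 11.2 CPM in sham 1, 2 and 3, with no overlap between groups. Its log2 change was 1.55 ± 0.14 in ICH against sham (adjusted p = 3.53e-05), -0.97 ± 0.14 in ICH+P7C3-A20 against ICH (adjusted p = 0.00682) and 0.58 ± 0.14 in ICH+P7C3-A20 against sham (adjusted p = 0.0412). The ectonucleotidase genes Entpd1 and Enpp1 were higher in ICH than in sham brains by 1.0 ± 0.13 (adjusted p = 0.000337) and 0.69 ± 0.19 (adjusted p = 0.0205) on the log2 scale. In ICH+P7C3-A20 against ICH brains they fell by 0.53 ± 0.13 (adjusted p = 0.0329) and 0.76 ± 0.19 (adjusted p = 0.0342), so that 3 of the 9 were lower and 0 higher (median -0.53), beside 6.05% lower and 2.69% higher over all genes tested. Only 1 was lower when any ICH library, ICH+P7C3-A20 1 or ICH+P7C3-A20 2 was left out. P2rx7 was the 1 gene of the 9 called in ICH+P7C3-A20 against sham, beside 5.32% over all genes tested. That call ended without ICH+P7C3-A20 2, ICH+P7C3-A20 3 or any sham library.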

How the data were processed

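Per the labels' protocols, polyadenylated RNA was made into dUTP libraries that mark the strand. The submitters' processing notes name cutadapt 1.9, HISAT2 2.0.4 and StringTie 1.3.4d. Which genome build and strand setting were used, and how counts were made, is not stated there. Per gene, the authors deposited FPKM and whole-number estimated counts, per the file headers. The deposited estimated count was FPKM multiplied by transcript length and a constant, and rounded up, in 93.2% to 94.1% of weakly expressed genes with 1 transcript, so the counts are estimates from coverage. They were whole and rounding changed none. Of the gene IDs, 34996 are in GENCODE M21 (GRCm38) and 31972 have the identical position and strand, among them 6 of the 7 genes (the Sarm1 row ends at 78497458, in M21 at 78497754).

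With R 4.3.3, 21900 genes passed filterByExpr with the groups given (minimum count 10, minimum total 15). The minimum count is applied as the matching CPM, in at least as many libraries as the smallest group holds. These genes were fitted in edgeR 4.0.16 after TMM scaling, as a robust quasi-likelihood model with 1 mean per group and all 9 libraries. Tests were two-sided with Benjamini-Hochberg adjustment, and an error is the log2 change over the root of F. Alternatives were DESeq2 1.42.0, limma 3.58.1 on log2(FPKM + 1), on log2(FPKM + 0.1) and after quantile normalization (a log2 change on such a scale understates that of low genes), other scalings and filters, the compared groups alone, a replicate block, the mitochondrial share as a covariate (chosen after seeing the data) and each library left out. The edgeR fit was also run on simulated counts, and the alternatives were not. That run is not used as support for any result. Likeness used log2(CPM + 0.1) centred over libraries.

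The 7 genes and all lists were chosen with earlier results of these data known. Named list genes were the up to 3 called genes with the smallest p per list and comparison, likeness genes the 3 closest with a mean FPKM of at least 1. Exon overlaps came from M21, shared transcript sequence from minimap2 2.31, and figures from matplotlib 3.10.9 in Python 3.11.15.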

Additional observations from a re-analysis of the deposited data

How the results depend on the processing

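Over the 7 genes and 3 comparisons, 288 recomputed values kept their direction and side of the threshold, 26 lost and 12 gained a call, and 7 changed sign. The sign changes were all in genes with no call. Nnmt in ICH+P7C3-A20 against ICH was -0.68 with the mitochondrial share as a covariate, -0.25 without ICH 1 and -0.08 without ICH+P7C3-A20 1 (-0.25 to 1.22 with 1 library left out), and Parp1 in ICH+P7C3-A20 against sham was 0.01 after quantile normalization, 0.03 with that covariate, 0.03 without ICH+P7C3-A20 3 and 0.12 without sham 3 (-0.10 to 0.12 with 1 library left out). The causes were not tested.

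Leaving out 1 library, 2 to 4 of the 7 genes were called in ICH against sham (4 with all), 0 to 2 in ICH+P7C3-A20 against ICH (1 with all) and 1 to 2 in ICH+P7C3-A20 against sham (2 with all). In ICH+P7C3-A20 against ICH, 2 were called with DESeq2 size factors in edgeR, with no low-count filter, with a minimum count of 50, with limma on log2(FPKM + 1), after quantile normalization and with the compared groups alone, and 3 with DESeq2. In ICH+P7C3-A20 against sham, 0 were called with limma on log2(FPKM + 1), on log2(FPKM + 0.1) or after quantile normalization and with the compared groups alone. Parp2 in ICH against sham lost its call with limma on log2(FPKM + 1) (adjusted p = 0.0724) and on log2(FPKM + 0.1) (0.0709), and Parp3 in ICH+P7C3-A20 against ICH on log2(FPKM + 0.1) (0.0547).

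Over the whole table, 5701 genes were called in ICH against sham (4075 to 5561 with 1 library left out). In ICH+P7C3-A20 against ICH 1914 were called, with 3532 by DESeq2, 1250 by limma on log2(FPKM + 0.1) and 571 to 1954 with 1 library left out (571 without ICH 2). In ICH+P7C3-A20 against sham 1165 were called, with 2109 by DESeq2, 331 and 527 by limma on log2(FPKM + 1) and log2(FPKM + 0.1), 475 after quantile normalization, 435 with the compared groups alone and 538 to 1434 with 1 library left out. Of the calls, 60% were higher in ICH against sham (73.4% on log2(FPKM + 1), 47.1% after quantile normalization), 30.8% in ICH+P7C3-A20 against ICH (13.3% on log2(FPKM + 1)) and 86% in ICH+P7C3-A20 against sham (73.9% by DESeq2). No scaling moved the median of all genes by over 0.1.

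Replicate numbers did not pair the libraries: deviations of same-numbered libraries correlated at -0.16 to 0.13, and 2 of 9 libraries matched best with their own number. A replicate block left 4, 1 and 2 of the 7 genes called in the 3 comparisons, as did the mitochondrial share as a covariate, an alternative chosen after seeing the data. Under the block 0 other PARP genes were called higher in ICH+P7C3-A20 against ICH, and Aox1 and P2rx7 lost their calls against sham. Nnmt had 0 to 28 counts a library, and these varied within each group; every comparison rests on 3 mice a group.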
